A study of Homo sapiens with 4 samples.

Results

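YAP1, its paralog TAZ (gene symbol WWTR1), the 4 TEAD transcription factors through which both act, the target genes CCN1 and CCN2, and the pathway inhibitors LATS2 and AMOTL2 were followed through the lists of regions with reduced H3K4me3 in Tat-SID treated MDA-MB-231 cells. These 10 genes were chosen by name, with earlier results of these data known, as were the gene lists set beside them below. Their shares are therefore descriptions and not unbiased estimates. All 10 are protein-coding, out of 64486 annotated genes and 20176 protein-coding genes. A gene was counted when a listed region lay within 3 kb of the start of the gene or of the transcription start site (TSS) of any of its transcripts, and otherwise the distance from its closest TSS to the nearest region was measured.

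MDA-MB-231 is an established triple-negative breast cancer cell line. Tat-SID is a decoy peptide that joins the SIN3 interaction domain of the repressor MAD to the nuclear localization signal of HIV Tat, and it competes for the PAH2 domain of the scaffold protein SIN3. H3K4me3, trimethylation of histone H3 on lysine 4, marks the TSS of transcribed genes, and the question was how its distribution changes under the peptide. Native ChIP-Seq for H3K4me3 was available from 1 library of cells that received no peptide, 1 library at 1 μM and 1 library at 2.5 μM Tat-SID, beside 1 library of input DNA, and cells were exposed to the peptide for 3 days. All libraries came from the same cell line, and the comparison was with untreated cells, not with a scrambled peptide.

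The deposited lists held 141 regions with reduced H3K4me3 at 1 μM and 2063 at 2.5 μM, with 3 increased regions at 2.5 μM, none of which lay on a chromosome that carries one of the 10 genes. Each list gives the position of a region and no read number or fold change. The size of a loss is therefore unknown, the depth of the libraries was not used here, the identity of the cells could not be checked against marker genes, and with 1 library per condition nothing was tested. A region can be called reduced only where untreated cells carried the mark, and the lists do not show which other genes carried it. The absence of a gene from a list does not show that its H3K4me3 stayed the same. Both doses were compared by the authors with the same untreated library, so the 2 lists share their control.

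In the Hippo pathway the kinases STK3 and STK4 with their scaffold SAV1 activate LATS1 and LATS2, which with MOB1 phosphorylate YAP and TAZ and hold them in the cytoplasm. Unphosphorylated YAP and TAZ enter the nucleus, where they have no DNA binding domain of their own and are brought to DNA by TEAD factors, to switch on genes of growth, adhesion and matrix signalling. CCN1 (CYR61) and CCN2 (CTGF), secreted matricellular proteins, are the classic targets, while LATS2 and AMOTL2 are targets that feed back to restrain YAP and TAZ. The pathway is known to be highly active in triple-negative breast cancer cells with mesenchymal features.

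TEAD factors bind the hexamer GGAATG, which reads CATTCC on the other strand. It was searched on both strands from 250 bases before to 50 bases after the TSS of the canonical transcript. The hexamer was present at 7 of the 10 genes, which were YAP1, TEAD1, TEAD4, CCN1, CCN2, LATS2 and AMOTL2. It was present in 2244 of 19819 protein-coding promoters of the same length (11.3%), and in 207 of the 1993 with a 2.5 μM region within 3 kb of the canonical TSS itself (10.4%). A match is a description of the letters and not a binding site.

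The 250 bases before the TSS of YAP1, CCN1 and CCN2 are given because these genes had a reduced region and all their hexamers lay upstream of the TSS. All sequences are from GRCh37 (hg19), read 5′ to 3′ on the strand of the gene and end at the base before the TSS, with the hexamer in capitals.
YAP1, chr11:101980928-101981177, plus strand: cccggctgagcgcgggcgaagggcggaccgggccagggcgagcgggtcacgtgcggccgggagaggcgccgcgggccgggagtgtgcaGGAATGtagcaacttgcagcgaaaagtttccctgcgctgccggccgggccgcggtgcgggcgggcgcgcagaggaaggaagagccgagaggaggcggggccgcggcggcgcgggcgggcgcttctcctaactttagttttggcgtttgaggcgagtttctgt
CCN1, chr1:86046194-86046443, plus strand: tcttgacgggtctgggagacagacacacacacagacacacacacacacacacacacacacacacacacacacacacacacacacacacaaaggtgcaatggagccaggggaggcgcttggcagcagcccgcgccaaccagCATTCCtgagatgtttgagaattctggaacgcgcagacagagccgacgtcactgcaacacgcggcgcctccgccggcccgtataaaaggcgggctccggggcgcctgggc
CCN2, chr6:132272513-132272762, minus strand: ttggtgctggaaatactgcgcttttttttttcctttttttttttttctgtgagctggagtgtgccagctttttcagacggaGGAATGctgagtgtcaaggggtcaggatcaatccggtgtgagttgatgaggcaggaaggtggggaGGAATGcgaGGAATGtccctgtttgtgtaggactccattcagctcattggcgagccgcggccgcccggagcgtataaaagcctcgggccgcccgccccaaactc

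In YAP1 the hexamer began 162 bases before the TSS. In CCN1 it began 110 bases before the TSS and read CATTCC on the strand of the gene. CCN2 held 3 copies in the same direction, which began 169, 104 and 95 bases before the TSS, so that the last pair lay 9 bases apart from start to start. The same hexamer followed by a T, searched on both strands, was found in 3 of the 10 genes (YAP1, CCN2 and AMOTL2) and in 2.37% of all protein-coding promoters. The AP-1 motif TGANTCA, whose factors often share enhancers with TEAD, was found in none of the 10 promoters and in 5.41% of all.

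TEAD1 and TEAD4 are given next because 2 genes of the family carried almost the same arrangement across their TSS, although a reduced region was listed for only one of them. LATS2 and AMOTL2 are the feedback genes with a hexamer and no region.
TEAD1, chr11:12695955-12695984, plus strand: CATTCCtgtcctCATTCCgaacattcttag
TEAD4, chr12:3068550-3068579, plus strand: CATTCCagccctCATTCCgcgCATTCCagc
LATS2, chr13:21635699-21635728, minus strand: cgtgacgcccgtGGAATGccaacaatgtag
AMOTL2, chr3:134093341-134093370, minus strand: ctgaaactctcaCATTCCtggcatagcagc

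In TEAD1 and TEAD4 the window of 30 bases began 13 bases before the TSS, and 22 of the 30 positions were identical. The pair was chosen for its hexamers, so this count includes the letters of the shared CATTCC copies. No other pair of promoters was compared. The first CATTCC began 13 bases before the TSS in both genes and the next one 12 bases later, over the TSS itself, and TEAD4 had another that began 8 bases after it. In LATS2 the hexamer began 9 bases after the TSS, and in AMOTL2 69 bases before it. WWTR1, TEAD2 and TEAD3 had no hexamer in this window.

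At 2.5 μM Tat-SID, 5 of the 10 genes (50.0%) had a region with reduced H3K4me3, namely YAP1, WWTR1, TEAD1, CCN1 and CCN2. Among all protein-coding genes the share was 10.8% (2178 of 20176, exact Clopper-Pearson 95% confidence interval 10.4% to 11.2%, which covers counting error over genes only). At 1 μM none of the 10 genes had a region, beside 136 of 20176 protein-coding genes (0.674%, 95% confidence interval 0.566% to 0.797%). Both coactivators, 1 of the 4 TEAD genes and both CCN targets were in the 2.5 μM list, and both inhibitors were missing from it. In each of the 5 genes the region covered the canonical TSS, and counting only genes with a TSS base inside a region gave 10.6% of protein-coding genes at 2.5 μM and 0.669% at 1 μM. The closest region to any other member was 107 kb away, so no member stood near the 3 kb limit.

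**Figure D1:**
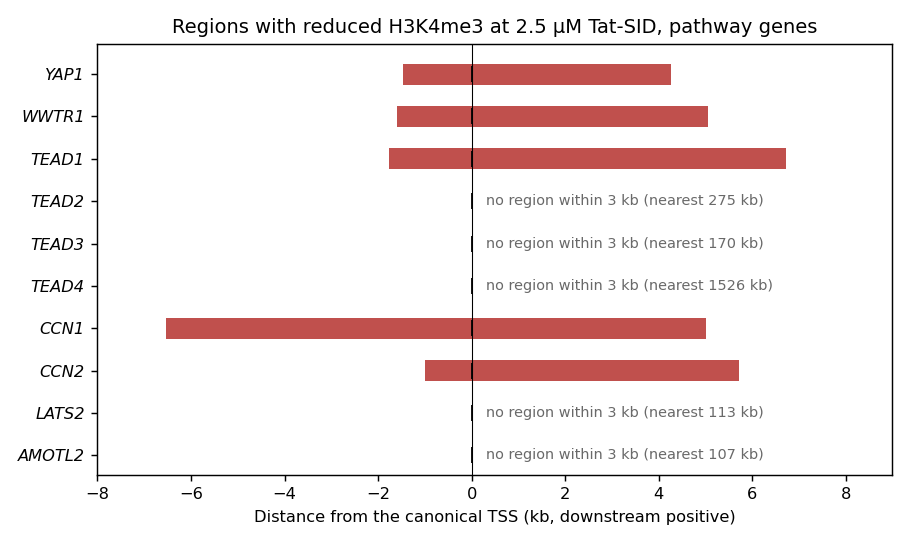
Extent of the listed 2.5 μM Tat-SID region around the canonical TSS of each of the 10 pathway genes, in kb with downstream positive; bars are regions with reduced H3K4me3 and a grey note gives the distance to the nearest region where none lay within 3 kb. The bars of YAP1, WWTR1, TEAD1 and CCN2 reach further downstream than upstream, and that of CCN1 reaches further upstream.

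CpG-rich promoters carry most H3K4me3 in mammalian cells, and 9 of the 10 genes had one, defined as over 50% GC with a ratio of observed to expected CpG over 0.6 within 1 kb on each side of the canonical TSS. The exception was TEAD2, with a GC content of 59.9% and a ratio of 0.55. All 5 genes with a region were of this class. Of all protein-coding genes with a CpG promoter, 15.0% had a reduced region at 2.5 μM (1529 of 10190, 95% confidence interval 14.3% to 15.7%), against 6.67% of those without (642 of 9629). At 1 μM the corresponding shares were 0.942% and 0.415%. The share also differed between chromosomes. It was 8.28% on chromosome 11, home of YAP1 and TEAD1, 12.3% on chromosome 1 with CCN1, 13.6% on chromosome 3 with WWTR1 and AMOTL2, and 18.8% on chromosome 6 with CCN2 and TEAD3. It was 2.91% on chromosome 19, where TEAD2 lies, 12.7% on chromosome 12 with TEAD4 and 14.0% on chromosome 13 with LATS2.

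YAP1 (ENSG00000137693.14), the coactivator after which the pathway output is named, lies on the plus strand of chromosome 11 from 101981178 to 102104155. Its region ran from 101979701 to 101985449, a length of 5749 bp, and was longer than 65.9% of the regions of the 2.5 μM list, whose median length was 4949 bp. It began 1477 bp upstream of the TSS and ended 4271 bp downstream, so that 74.3% of it lay downstream, over exons 1 and 2 of the 9 exons of the canonical transcript and into the second intron. Of the 11 annotated transcripts, 8 start inside the region, and the other 3 start at least 47.7 kb beyond it. The TSS of 1 long non-coding RNA, ENSG00000277459, was also inside.

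WWTR1 (ENSG00000018408.15), which encodes TAZ, lies on the minus strand of chromosome 3 from 149235022 to 149454501. Its region, from 149370751 to 149377399, had a length of 6649 bp and was longer than 80.0% of the regions. It did not lie at the outermost annotated start of the gene, which was 77.1 kb away, but at the canonical TSS at 149375812, where it reached 1587 bp upstream and 5061 bp downstream (76.1% downstream) over exons 1 and 2 of 7. Of the 12 transcripts, 5 start inside it, and the TSS of the antisense gene WWTR1-AS1 was inside as well. The coactivators were therefore alike in the position of their regions, over the first 2 exons with about the same reach upstream. This layout was not particular to them. The regions of TEAD1 and of the kinase gene MAP4K4 also covered exons 1 and 2, with 1767 and 1618 bp upstream.

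TEAD1 (ENSG00000187079.20) was the TEAD gene with a region. The gene lies on the plus strand of chromosome 11 from 12695968 to 12966284, and the region ran from 12694201 to 12702699. With 8499 bp it was longer than 92.1% of the regions, and it reached 1767 bp upstream and 6731 bp downstream of the TSS (79.2% downstream), over exons 1 and 2 of 13. The starts of 4 of its 6 transcripts were inside, and the other pair were 147 and 198 kb away. No TSS of another protein-coding gene or of a long non-coding RNA was inside.

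The other TEAD genes, whose proteins share the same DNA binding domain, had no region nearby. TEAD2 (ENSG00000074219.14) lies on the minus strand of chromosome 19 from 49843852 to 49865714, and the nearest region was 275 kb away, at the starts of RRAS and SCAF1 (50140851 to 50147099). TEAD3 (ENSG00000007866.22) lies on the minus strand of chromosome 6 from 35441374 to 35464856, and the nearest region was 170 kb away, inside FKBP5 (35635151 to 35638299). TEAD4 (ENSG00000197905.10) lies on the plus strand of chromosome 12 from 3068496 to 3149842, and the nearest region was 1526 kb away. Of the protein-coding genes without a region within 3 kb, the median distance was 475 kb (quartiles 176 and 1120 kb, n = 17920), so TEAD2 and TEAD3 were closer to a region than most such genes, TEAD3 by the larger margin, and TEAD4 was further than most. TEAD3 and TEAD4 have CpG promoters with 74.2% and 69.6% GC, above the 67.8% of TEAD1, and TEAD2 lies below it with 59.9%. Whether GC content bears on the regions of this family was not tested.

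CCN1 (ENSG00000142871.18) had the longest region of the members. The gene is short, 3829 bp on the plus strand of chromosome 1 from 86046444 to 86050272, and the region of 11549 bp, from 86039901 to 86051449, contained all of it with its 5 exons. It was longer than 98.2% of the regions. It was also the only member region with more of its length before the TSS than after it, with 6543 bp upstream and 5005 bp downstream (43.3% downstream). The upstream part contained a TSS of DDAH1, which encodes an enzyme that breaks down methylated arginines, and the starts of 2 long non-coding RNA genes (ENSG00000272691 and ENSG00000282057) were inside the region too. All 6 CCN1 transcripts start inside. The region therefore cannot be assigned to CCN1 alone. Of all regions at 2.5 μM, 18.5% contained starts of more than 1 protein-coding gene.

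CCN2 (ENSG00000118523.6) also lay whole inside its region. The gene is 3197 bp long on the minus strand of chromosome 6, from 132269316 to 132272512, and the region of 6699 bp, from 132266801 to 132273499, was longer than 80.3% of the regions. It reached 987 bp upstream and 5711 bp downstream of the TSS, and its share downstream (85.3%) was the highest of the members. All 5 exons and the only annotated TSS were inside, together with the TSS of the long non-coding RNA LINC01013. A whole gene inside a region was uncommon, with 108 protein-coding genes or 4.96% of the 2178 with a region. For short genes it was the rule: of 139 such genes of at most 5000 bp, the class of CCN1 and CCN2, 90 (64.7%) lay whole inside.

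The inhibitors had no region. LATS2 (ENSG00000150457.9), the kinase that phosphorylates YAP and TAZ, lies on the minus strand of chromosome 13 from 21547175 to 21635725, and the nearest region was 113 kb away at the starts of MRPL57 and SKA3 (21748551 to 21752199). AMOTL2 (ENSG00000114019.15), an angiomotin that holds YAP at cell junctions, lies on the minus strand of chromosome 3 from 134074189 to 134094321, with the nearest region 107 kb away at the starts of ANAPC13 and CEP63 (134201251 to 134207249). Both have CpG promoters, with 64.6% and 63.7% GC. The best known targets of YAP and TAZ were thus split, with CCN1 and CCN2 in the list and LATS2 and AMOTL2 outside it.

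At 1 μM Tat-SID the nearest regions were far from the 10 genes. The shortest distances were 420 kb for TEAD3 and 670 kb for WWTR1, and no region of this list lay on chromosome 19 with TEAD2. For CCN1 the nearest 1 μM region was 7.60 Mb away, for TEAD4 11.4 Mb, for AMOTL2 11.8 Mb, for TEAD1 15.8 Mb, for YAP1 19.9 Mb, for LATS2 29.0 Mb and for CCN2 75.6 Mb. The median over protein-coding genes without a region was 8.04 Mb, as only 141 regions were listed. Genes with a region at 2.5 μM were on neither side of this median as a group, and the distances at 1 μM carry no order of response.

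**Figure D2:**
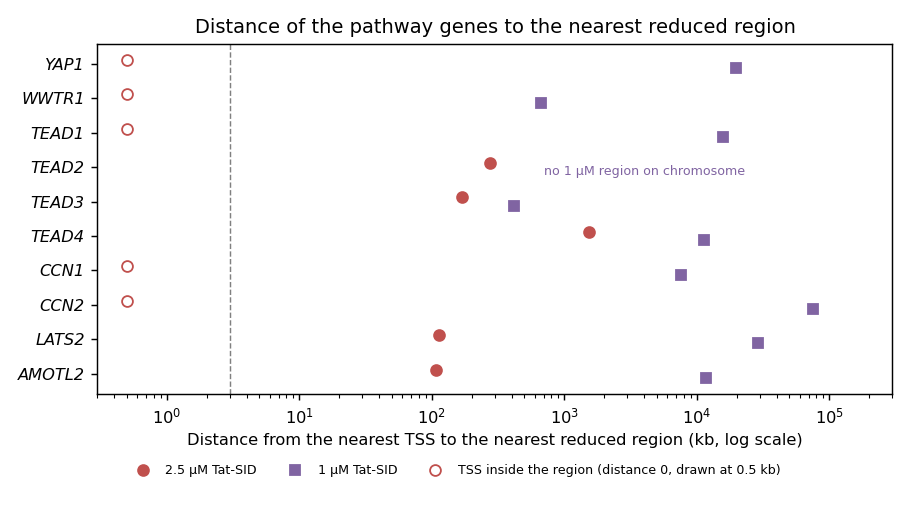
Distance from the closest TSS of each of the 10 genes to the nearest region with reduced H3K4me3, in kb on a log axis; circles are 2.5 μM, squares are 1 μM, open circles mark a TSS inside the region (distance 0, drawn at 0.5 kb) and the dashed line is the 3 kb limit. The 5 open circles lie left of the limit and every other point lies at least 107 kb away.

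The reach of the member regions was set beside the 1971 protein-coding genes whose canonical TSS lay in a 2.5 μM region. Those regions reached a median of 1849 bp upstream (quartiles 1279 and 2616 bp) and 3095 bp downstream (quartiles 2314 and 4118 bp), with a median of 64.3% of their length downstream. All 5 members reached further downstream than the upper quartile, from 4271 bp in YAP1 to 6731 bp in TEAD1. Upstream, YAP1, WWTR1 and TEAD1 were inside the quartiles, CCN2 was below them at 987 bp and CCN1 above them at 6543 bp. Compared with these quartiles, the excess length lay inside the gene in YAP1, WWTR1 and TEAD1 and on both sides of the TSS in CCN1. In CCN2 it also lay downstream of the TSS, but past the end of the gene, which is only 3197 bp long. A long non-coding RNA TSS lay in 4 of the 5 member regions, beside 728 of 2063 regions (35.3%).

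Hexamer matches were also counted along the whole regions. CCN1 had 12 (1.04 per kb), CCN2 6 (0.90 per kb), YAP1 5 (0.87 per kb), TEAD1 7 (0.82 per kb) and WWTR1 3 (0.45 per kb). The median over the 2063 regions was 0.50 per kb (quartiles 0.26 and 0.74), and 89.0% of regions held at least 1 match. The density was above that of 91.4% of regions in CCN1, 85.0% in CCN2, 83.2% in YAP1 and 80.7% in TEAD1, and of 43.7% in WWTR1. AP-1 motifs were present in all 5 regions, which are far longer than the 300-base promoters that held none. The density was 0.75 per kb in both WWTR1 and CCN2, 0.35 in YAP1, 0.26 in CCN1 and 0.24 in TEAD1. The median over all regions was 0.27 per kb (quartiles 0.00 and 0.47). The region of WWTR1 had fewer TEAD words than the other 4, and it shared the highest density of AP-1 words among the members with CCN2.

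The order of the 2.5 μM list is not by position, and its key is not stated. Regions that overlap a 1 μM region stood early in it, with 97.9% of these 143 regions among the first 500 places and a median place of 76.0, against 1104 for the other 1920. CCN1 stood at place 72 of 2063, and only 2 of the 71 regions before it lacked an overlap with a 1 μM region, as CCN1 itself did. TEAD1 stood at place 197, CCN2 at 714, YAP1 at 852 and WWTR1 at 1357. Without the key these places are not a strength of change.

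Reduced regions were also found at neighbours of the members. Within 500 kb of the 10 genes, 18 of 126 other protein-coding genes had a region at 2.5 μM (14.3%), beside 10.8% of all protein-coding genes. This pooled share leans on TEAD2, which supplied 57 of the 126 neighbours, 4 of them with a region. TEAD2 lies on chromosome 19, where 2.91% of protein-coding genes had a region. Around YAP1 there were 3 of 8, the apoptosis inhibitors BIRC2 and BIRC3 and the gene TMEM123. Around CCN1 there were 3 of 5 (BCL10, DDAH1 and SYDE2), with DDAH1 through the shared region. WWTR1 had 1 of 8, the membrane protein gene TM4SF1, CCN2 had 1 of 7, ENPP1, and TEAD1 had 0 of 2. The genes without a region had called neighbours as well, with 2 of 8 for LATS2, 2 of 7 for AMOTL2, 2 of 15 for TEAD3, 4 of 57 for TEAD2 and 0 of 9 for TEAD4.

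Of the remaining Hippo pathway genes, a list of 26 core kinases, upstream inputs, LIM proteins and VGLL cofactors, 9 had a reduced region at 2.5 μM (34.6%, beside 10.8% of protein-coding genes) and none at 1 μM. CpG promoters were present at 22 of the 26. In the core, 3 of 6 had a region. These were LATS1, the paralog of LATS2, with 3049 bp, the scaffold SAV1 with 3949 bp, and the kinase STK3 with 6199 bp. The STK3 region was at the outermost start of the gene, 115 kb from the canonical TSS, and also held a TSS of OSR2. Among the inputs, 4 of 13 had one (30.8%): the kinase MAP4K4 with 8099 bp, the FERM protein FRMD6 with 7799 bp at its canonical TSS as 1 of 2 regions near its starts, the KIBRA relative WWC2 with 4399 bp, and the kinase TAOK3 with 3099 bp at an internal start 13.0 kb from the canonical TSS. AJUBA, a LIM protein that inhibits LATS kinases, was the 1 of 3 in its group, with 7449 bp. VGLL4, which competes with YAP for TEAD, was the 1 of 4 in its group, with 4499 bp at a promoter outside the CpG class. The 17 others were 21.6 kb (LIMD1) to 4159 kb from a region, with a median of 477 kb. Regions were thus found at genes that restrain YAP and TAZ as well as at genes that carry their output.

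Among 18 further genes that are known to respond to YAP and TAZ, 11 had a reduced region at 2.5 μM (61.1%, beside 10.8% of protein-coding genes). The longest belonged to AXL, a receptor tyrosine kinase, with 8999 bp, followed by RBMS3, an RNA-binding protein, with 8799 bp, NT5E, a cell-surface nucleotidase, with 8649 bp, and TGFB2, a TGF-beta ligand, with 8199 bp. F3, which encodes tissue factor, had 7649 bp, CRIM1 6999 bp, PTPN14, a phosphatase that binds YAP, 6849 bp, and the stress response gene GADD45A 6649 bp with the whole gene inside. DOCK5 had 5949 bp, MYOF 5849 bp and ANKRD1, an ankyrin repeat protein that is often used as a YAP readout, 5349 bp. All 11 were longer than the median region, and their own median was 6999 bp beside 6699 bp for the 5 members. Only 7 of the 11 had a CpG promoter, whereas all 5 members did. The promoters of ANKRD1, MYOF, AXL and RBMS3 fell outside that class.

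RBMS3 was the only gene of these lists with a region at 1 μM, 1 of the 18 targets (5.56%, beside 0.674% of protein-coding genes). On chromosome 3 its region ran from 29320101 to 29329149 at 1 μM (9049 bp) and from 29320201 to 29328999 at 2.5 μM, over the canonical TSS at 29322562. The 7 targets without a region at 2.5 μM (ASAP1, IGFBP3, FJX1, FOXF2, CCDC80, ARHGEF17 and NUAK2) were 41.3 kb (FJX1) to 1459 kb from one, with a median of 425 kb. With the members these lists hold known targets both inside and outside the set of reduced regions, and which of the latter carried H3K4me3 in untreated cells is unknown.

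**Figure D3:**
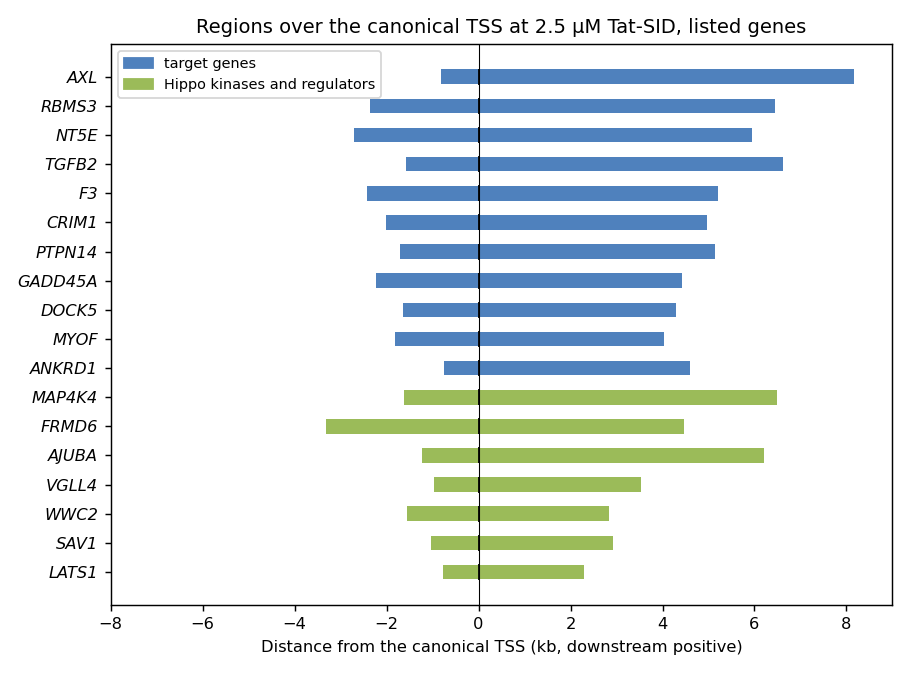
Extent of the reduced region at 2.5 μM Tat-SID around the canonical TSS of 18 other pathway genes, in kb with downstream positive; blue bars are target genes and green bars are Hippo kinases and regulators. STK3 and TAOK3 are not drawn because their regions do not cover the canonical TSS. Every target region extends at least 4 kb downstream of the TSS, and all 18 extend further downstream than upstream.

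The rest of the CCN family was outside the lists. The other 4 CCN genes (CCN3, CCN4, CCN5 and CCN6), which encode secreted proteins of the same domain plan, had no region at either dose, and the nearest regions at 2.5 μM were 103 to 1303 kb away. None of the 4 has a CpG promoter, with ratios of observed to expected CpG from 0.28 to 0.47 beside 0.78 in CCN1 and 0.79 in CCN2. Among all protein-coding genes without a CpG promoter, 6.67% had a region at 2.5 μM and 0.415% at 1 μM. The lack of a region at all 4 genes is near that share and does not set them apart. The hexamer was present in the promoters of CCN5 and CCN6, so it occurred in family members with and without a region.

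The promoter hexamer was not a mark of the genes with a region in the other lists either. It was found in 6 of the 18 targets (33.3%), which were ANKRD1, PTPN14 and TGFB2 with a region and ASAP1, FOXF2 and NUAK2 without. It was found in 3 of the 26 Hippo genes (11.5%), close to the 11.3% of all promoters. These were WWC2, which had a region, and WTIP and VGLL1, which did not. Among the members, 4 of the 5 with a region and 3 of the 5 without had the hexamer.

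**Figure D4:**
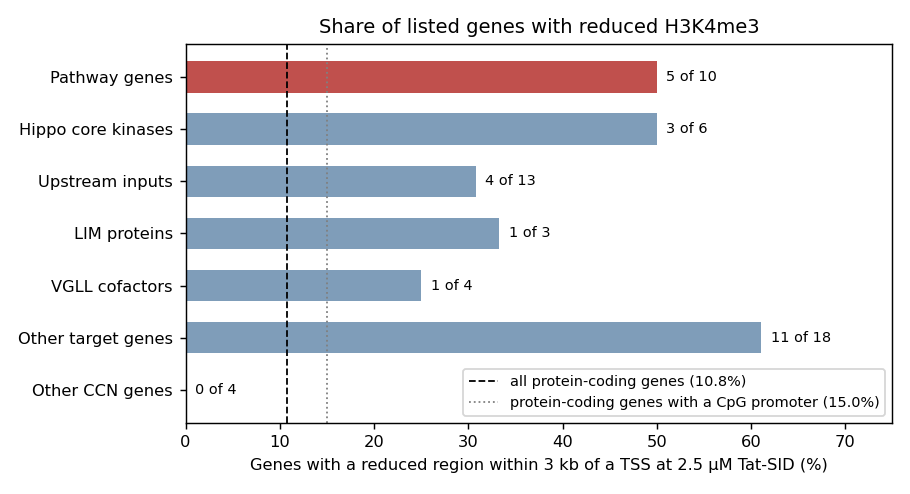
Share of the genes of each list that had a region at 2.5 μM Tat-SID by the 3 kb rule, in percent, with counts beside the bars; the dashed line is the share of all protein-coding genes (10.8%) and the dotted line that of protein-coding genes with a CpG promoter (15.0%). The members (5 of 10), the Hippo core (3 of 6) and the other targets (11 of 18) have the highest shares, and the other CCN genes have none.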

How the data were processed

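The authors checked the reads with FastQC (version 0.10.0), aligned them to hg19 (GRCh37) with Bowtie (version 1.0.0), and made tracks of enrichment over input with MACS2 (version 2.1.0). SICER-df was used to call changed regions of each treated library against the untreated one. The sources give more than one FDR threshold for this step. The deposited lists hold chromosome, start and end, with no counts, and the depth of the libraries was not used here. Positions are printed from 1.

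Genes, transcripts and exons were from GENCODE release 44 mapped to GRCh37, and sequence was from GRCh37. Distances, region extents and motifs were computed in Python 3.11.15 with pysam 0.24.0, and exact Clopper-Pearson intervals with scipy 1.17.1. Distances, counts and motif searches were tested on simulated data. GC and CpG content were taken from 1 kb on each side of the canonical TSS, which placed 19819 protein-coding genes in a class. The 10 genes and all lists were chosen with earlier results of these data known. All 10 genes were named, as was every gene of the other lists with a region and the nearest gene without, and the remaining ones were named where a list was split by them. Alternatives were the TSS window, the choice of TSS, a minimum region length of 1000 bp, merging within 3000 bp and the motif. Signal tracks were not used here.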

Additional observations from a re-analysis of the deposited data

How the results depend on the processing

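Of the 10 pathway genes, 5 had a reduced region at 2.5 μM under every alternative but the gene start alone, which left 4, since WWTR1 was then 77102 bp from a region. None had a region at 1 μM under any alternative. With the gene start alone, the share of protein-coding genes was 9.50% at 2.5 μM and 0.496% at 1 μM, and RBMS3 left the 1 μM count, so that 0 of 18 targets remained there. The 2.5 μM counts were then 6 of the 26 Hippo genes and 10 of the 18 targets, and 7 and 11 with canonical TSS only. The 2.5 μM share was 9.88% with canonical TSS only and 11.6% with 10 kb on each side. The hexamer followed by a T was found in 3 of the 10 promoters and 2.37% of all, and the window at the gene start gave 12.8% for the hexamer and 5 of the 10 genes in place of 7, without TEAD4 and AMOTL2. No other value among those recomputed moved by more than its counting interval, or, for a count of genes, by over 1.5 times. No paired analysis was possible because the libraries have no replicates, and for the same reason no library could be left out. Without depth or signal, genes outside a list cannot be told apart from genes whose change was too small to be called.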
